A study of Homo sapiens with 6 samples.

Results

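The Sprouty and SPRED genes encode feedback inhibitors of receptor tyrosine kinase signalling, and all 7 human members were followed here: SPRY1, SPRY2, SPRY3, SPRY4, SPRED1, SPRED2 and SPRED3. They were taken as a gene family out of 18377 genes measured, by a rule that uses no difference between groups, although earlier results of these data were known. Each gene was read from the probe set that carries its symbol alone, and where several did so the one with the highest mean was kept. RNA came from MCF10A-HER2/3 cells, a derivative of the human mammary epithelial line MCF10A named for HER2 and HER3 (ERBB2 and ERBB3). The cells expressed SHP2 miR1, SHP2 miR2 or CTRL miR from a lentiviral vector that doxycycline switches on. SHP2 is the tyrosine phosphatase encoded by PTPN11, which passes signals from receptors to RAS, and both SHP2 miRs target it. Each group had 2 arrays, 6 in all. All 3 groups, the control included, received doxycycline from the day after seeding and were kept for 15 days in three-dimensional culture, in a medium that held EGF, insulin, hydrocortisone, cholera toxin and horse serum. The labels do not say how HER2 and HER3 were introduced, nor whether a line was a single clone. Nor do they call the replicates separate cultures. The p-values therefore rest on array-to-array spread alone, part or all of which may be technical.

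Sprouty and SPRED proteins share a cysteine-rich domain at the carboxyl end that holds them at membranes. Their genes are switched on by ERK signalling, and the proteins then dampen the signal downstream of the receptor, which makes them a negative feedback. Sprouty proteins bind adaptors such as GRB2 and the ubiquitin ligase CBL once a tyrosine near their amino end is phosphorylated. SPRED proteins carry an EVH1 domain at the amino end, through which SPRED1 brings neurofibromin, the RAS GTPase-activating protein encoded by NF1, to the membrane. SHP2 has been described as a phosphatase of Sprouty proteins.

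The values are log2 probe set values, deposited by the authors, on HuGene-1_0-st-v1 arrays. Array medians lay between 5.23 and 5.35, and replicates correlated at r = 0.985 to 0.986 across genes. All 8 mammary epithelial markers that were measured had a mean above the 40th percentile of probe sets (4.76), among them the keratins KRT5, KRT14, KRT8 and KRT18. Their averaged log2 level was 9.66 to 9.77 on the SHP2 miR arrays and 9.42 to 9.46 on the control arrays, and KRT14 was the 1 marker of the 8 that rose (difference 1.10, limma adjusted p = 0.00440). The averaged levels of fibroblast markers (5.42 to 5.55 with the SHP2 miRs, 5.45 to 5.48 in control), leukocyte markers (4.42 to 4.82 and 4.39 to 4.51) and endothelial markers (4.77 to 4.96 and 4.91 to 4.97) overlapped between the groups. Above that percentile lay 6 of 7 fibroblast, 2 of 5 leukocyte and 2 of 5 endothelial markers. The highest means among them were those of the fibroblast genes DCN (8.30) and COL1A1 (6.82) and the leukocyte gene CD14 (7.06). The leukocyte antigen gene PTPRC and the endothelial genes CDH5 and VWF lay below it. Of the fibroblast, leukocyte and endothelial markers, PECAM1 rose by 0.60 and TEK fell by 1.38. CD14 had an average difference of 0.96 and did not pass (limma adjusted p = 0.0505). In such bulk RNA, fewer cells of a type and less RNA per cell cannot be told apart.

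The targeted gene, PTPN11, had log2 values of 6.04 and 5.71 with SHP2 miR1, 6.90 and 7.28 with SHP2 miR2, and 7.96 and 8.44 with CTRL miR. The groups did not overlap, and SHP2 miR1 was lowest. PTPN11 fell by 2.32 with SHP2 miR1 (SE 0.22, limma adjusted p = 0.000548). The average difference of both SHP2 miRs from control was -1.72 (SE 0.19, adjusted p = 0.00184). For SHP2 miR2 alone it differed from control by -1.11 (95% interval -1.59 to -0.62), at an adjusted p of 0.0813, so the targeted gene itself did not pass there.

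**Figure D1:**
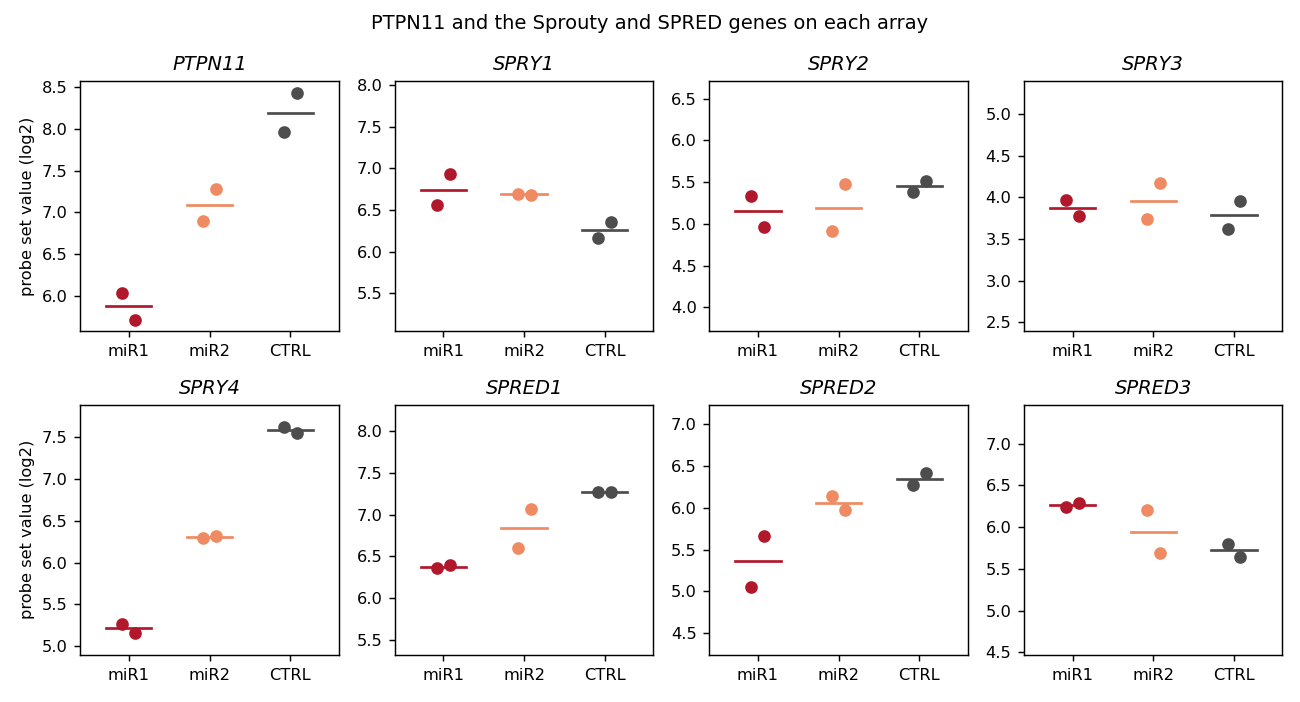
Log2 probe set values of PTPN11 and the 7 Sprouty and SPRED genes, 1 panel per gene, for SHP2 miR1, SHP2 miR2 and CTRL miR. Points are single arrays (n = 2 per group) and bars are group means; each panel spans the same height on the log2 scale, and levels are not compared between genes. SPRY4 shows 3 separate steps, with means of 5.21, 6.30 and 7.59 in that order of groups, while SPRY2 and SPRY3 show overlapping groups.

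SPRY4 fell with either SHP2 miR, SPRED1 and SPRED2 fell with SHP2 miR1, and no test passed for SPRY1, SPRY2, SPRY3 or SPRED3. For the average of both SHP2 miRs, 2 of 7 members passed the threshold (limma adjusted p under 0.05), as did 4.2% of all genes. Of these, 2 members were lower, against 2.67% of all genes, and 0 were higher, against 1.53%. For SHP2 miR1, 3 of 7 members passed, against 8.6% of all genes, with 3 lower (5.94% of all genes) and 0 higher (2.66%). For SHP2 miR2, 1 of 7 passed, against 0.37% of all genes, and it was lower (0.18%), with 0 higher (0.19%). The median log2 difference of the 7 members was -0.28 for the average, -0.30 for SHP2 miR1 and -0.25 for SHP2 miR2, where the medians over all genes were 0.02, 0.04 and -0.01. Both comparisons with control use the same control arrays. On all 4 SHP2 miR arrays, 3 members (SPRY4, SPRED1 and SPRED2) lay below both controls, as did 13.6% of all genes, and 1 member (SPRY1) lay above both, as did 12.6%. Both SHP2 miR1 arrays lay below both controls for 4 members (29% of all genes) and above them for 2 (30.5%), and both SHP2 miR2 arrays did so for 3 members (20.8%) and 1 member (19.8%).

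SPRY4, which binds the testicular kinase TESK1, had log2 values of 5.26 and 5.16 with SHP2 miR1. It had 6.29 and 6.32 with SHP2 miR2, and 7.63 and 7.56 with CTRL miR. Replicates lay close together and the 3 groups did not overlap, with means of 5.21 ± 0.07, 6.30 ± 0.02 and 7.59 ± 0.05 for SHP2 miR1, SHP2 miR2 and CTRL miR (SD, n = 2 each). With SHP2 miR1, SPRY4 fell by 2.38 (SE 0.14, 95% interval -2.71 to -2.06, 5.21-fold, adjusted p = 6.59e-05), and it ranked 12 among all genes by p. With SHP2 miR2 it fell by 1.29 (SE 0.14, 95% interval -1.61 to -0.96, 2.44-fold, adjusted p = 0.00972), ranking 16. Averaged over both, it fell by 1.84 (SE 0.13, adjusted p = 0.000203) and still passed whichever array was dropped, at adjusted p-values of up to 0.00958. The SHP2 miR2 call rested on each array of its groups: leaving out control replicate 1 or 2 gave adjusted p-values of 0.124 and 0.111, and leaving out SHP2 miR2 replicate 1 or 2 gave 0.1004 and 0.106. The difference itself then lay between -1.32 and -1.25.

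SPRY4 was also higher with SHP2 miR2 than with SHP2 miR1, by 1.09 (SE 0.14, 95% interval 0.77 to 1.42, 2.13-fold, adjusted p = 0.0310), on 2 of 2 arrays. It was the 1 member of 7 that passed in this direct comparison, where 0.19% of all genes were called, 0.152% higher and 0.0381% lower. Both SHP2 miR2 arrays lay above both SHP2 miR1 arrays for 3 members (26.4% of all genes) and below them for 1 (25.4%). PTPN11 differed by 1.21 between the same groups (95% interval 0.73 to 1.70, adjusted p = 0.0645). With control replicate 1 or 2 left out, adjusted p for SPRY4 was 0.0789. Dropping SHP2 miR1 replicate 1 or 2 gave 0.116 and 0.148, and dropping SHP2 miR2 replicate 1 or 2 gave 0.186 and 0.163. The difference stayed between 1.04 and 1.14.

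SPRED1, the member whose loss causes Legius syndrome in people, had log2 values of 6.37 and 6.39 with SHP2 miR1, 6.60 and 7.07 with SHP2 miR2, and 7.27 and 7.27 with CTRL miR. Every SHP2 miR array lay below both controls, and the SHP2 miR2 arrays were the ones that differed most between replicates. With SHP2 miR1, SPRED1 fell by 0.89 (SE 0.18, 1.86-fold, adjusted p = 0.0197). For SHP2 miR2 SPRED1 differed from control by -0.44 (95% interval -0.84 to -0.03, adjusted p = 0.414). As the average of the 2 SHP2 miRs, SPRED1 fell by 0.66 (SE 0.16, adjusted p = 0.0490), which lies close to the threshold. That call was lost without control replicate 1 or 2 (adjusted p = 0.143 and 0.307), SHP2 miR1 replicate 1 or 2 (0.104 and 0.0939) and SHP2 miR2 replicate 1 (0.101). With the replicate number as a block it was 0.0507. The SHP2 miR1 call was lost without control replicate 1 or 2 (0.0626 and 0.137) and without SHP2 miR1 replicate 1 or 2 (0.0906 and 0.0774).

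SPRED2, a SPRED1 relative that also has a KIT-binding domain, had log2 values of 5.05 and 5.66 with SHP2 miR1, 6.15 and 5.98 with SHP2 miR2, and 6.27 and 6.42 with CTRL miR. The groups did not overlap, and SHP2 miR2 lay close under control. With SHP2 miR1, SPRED2 fell by 0.99 (SE 0.21, 1.99-fold, adjusted p = 0.0237). For SHP2 miR2 SPRED2 differed from control by -0.29 (95% interval -0.76 to 0.19, adjusted p = 0.654), and the average was -0.64 (SE 0.18, adjusted p = 0.0894). SHP2 miR2 minus SHP2 miR1 was 0.71 (95% interval 0.23 to 1.18, adjusted p = 0.158), and for SPRED1 it was 0.46 (95% interval 0.05 to 0.86, adjusted p = 0.239). The SHP2 miR1 call for SPRED2 was lost without control replicate 1 or 2 (0.0602 and 0.175) and without SHP2 miR1 replicate 1 (0.128). The average passed without SHP2 miR1 replicate 2 (-0.79, adjusted p = 0.0333).

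The upstream sequences of the 3 members that fell in at least 1 comparison are shown to let their promoters be compared. Each line gives the 250 bases before the gene's first listed start, 5′ to 3′, from RefSeq on build GRCh38.p14. The SPRY4 window is chr5:142324248-142324497 on the minus strand, SPRED1 is chr15:38252586-38252835 on the plus strand, and SPRED2 is chr2:65432600-65432849 on the minus strand. Capitals mark GGAA, the core that ETS factors bind, and TGACG, a CRE half-site, on either strand (reverse complements TTCC and CGTCA). No marked motifs overlapped.
SPRY4: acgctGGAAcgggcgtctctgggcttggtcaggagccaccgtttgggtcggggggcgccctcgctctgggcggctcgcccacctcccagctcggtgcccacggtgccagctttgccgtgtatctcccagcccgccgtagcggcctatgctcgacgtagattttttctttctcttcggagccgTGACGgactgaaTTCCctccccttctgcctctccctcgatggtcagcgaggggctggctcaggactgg
SPRED1: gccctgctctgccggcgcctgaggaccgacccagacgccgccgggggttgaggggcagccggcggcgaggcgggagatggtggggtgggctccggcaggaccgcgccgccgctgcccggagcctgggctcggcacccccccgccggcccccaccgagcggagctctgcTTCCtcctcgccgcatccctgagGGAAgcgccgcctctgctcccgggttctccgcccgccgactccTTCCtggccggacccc
SPRED2: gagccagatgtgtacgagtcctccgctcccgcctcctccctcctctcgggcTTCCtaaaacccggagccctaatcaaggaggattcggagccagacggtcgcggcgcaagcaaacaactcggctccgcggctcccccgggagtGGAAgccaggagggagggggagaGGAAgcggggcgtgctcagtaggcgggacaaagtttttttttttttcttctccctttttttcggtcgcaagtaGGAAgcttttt

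GC content of these windows was 65.6% for SPRY4, 78.4% for SPRED1 and 58.8% for SPRED2, against a median of 58.0% over 35116 windows. GGAA occurred 2, 3 and 4 times in SPRY4, SPRED1 and SPRED2, and 92.7% of all windows hold it. TGACG occurred once in SPRY4, starting at position -68 from the gene start, and in none of the SPRED1 and SPRED2 windows shown. It was also found in 1 window each of SPRY2 and SPRY3, which did not pass, so 3 of the 16 member windows hold it, against 21.2% of all windows. Over the same 16 windows, which cover the 7 members, CCGGAA, a longer ETS core that contains GGAA, was found in 1 window each of SPRY1 and SPRY2 (14.5% of all windows). TGACTCA, the AP-1 site, was found in 1 window each of SPRED3 and SPRY3 (4.203% of all), that of SPRY3 on the Y chromosome. The 16 windows include SPRY3 starts on both the X and the Y chromosome, so shared sequence of this gene may be counted more than once. These matches describe letters in the window only.

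SPRY1, which in mice restrains RET signalling in kidney branching, had log2 values of 6.56 and 6.93 with SHP2 miR1, 6.69 and 6.68 with SHP2 miR2, and 6.16 and 6.35 with CTRL miR. All 4 SHP2 miR arrays lay above both controls, and the SHP2 miR groups overlapped each other. The average difference was 0.46 (SE 0.15, 95% interval 0.12 to 0.80, adjusted p = 0.130), with an adjusted p of 0.111 at 0.49 for SHP2 miR1 alone and of 0.398 at 0.43 for SHP2 miR2 alone. SHP2 miR2 minus SHP2 miR1 was -0.06, with a 95% interval of -0.45 to 0.33.

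SPRY2, which binds CBL and thereby slows the breakdown of the EGF receptor, had 5.34 and 4.96 with SHP2 miR1, 4.91 and 5.48 with SHP2 miR2, and 5.38 and 5.52 with CTRL miR (log2). SHP2 miR2 replicate 2 lay between the controls, so these groups overlapped. The average difference was -0.28 (SE 0.19, 95% interval -0.70 to 0.15, adjusted p = 0.436).

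SPRED3, which lacks a working KIT-binding domain, had 6.24 and 6.29 with SHP2 miR1, 6.20 and 5.69 with SHP2 miR2, and 5.80 and 5.64 with CTRL miR (log2). Both SHP2 miR1 arrays lay above control, and SHP2 miR2 replicate 2 lay between the controls. The difference was 0.55 for SHP2 miR1 (95% interval 0.12 to 0.97, adjusted p = 0.106) and 0.22 for SHP2 miR2 (95% interval -0.20 to 0.65, adjusted p = 0.707).

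SPRY3 lies in the pseudoautosomal region shared by the X and Y chromosomes, and its 2 probe sets held identical values, which were counted once. It had 3.97 and 3.77 with SHP2 miR1, 3.75 and 4.17 with SHP2 miR2, and 3.62 and 3.96 with CTRL miR (log2). It was the 1 member of 7 with a mean (3.87) under the 40th percentile of probe sets, and its groups overlapped throughout. The average difference was 0.12 (95% interval -0.26 to 0.51, adjusted p = 0.713).

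**Figure D2:**
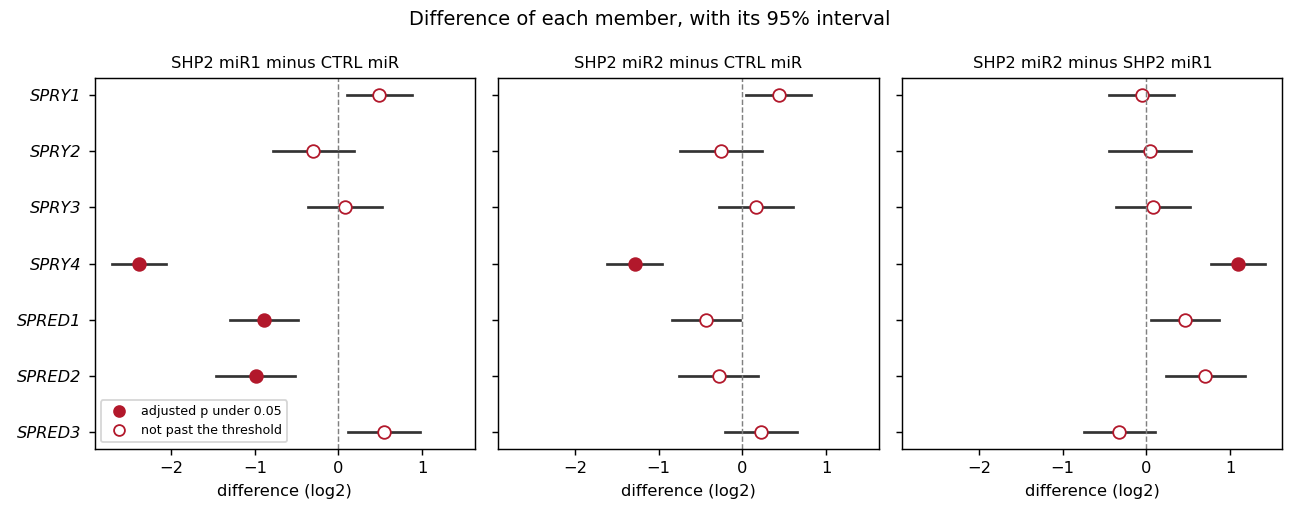
Log2 differences of the 7 members for SHP2 miR1 minus CTRL miR, SHP2 miR2 minus CTRL miR and SHP2 miR2 minus SHP2 miR1. Points are limma estimates, bars are 95% intervals, and filled points passed an adjusted p of 0.05 over all genes: SPRY4 in all 3 panels, and SPRED1 and SPRED2 in the SHP2 miR1 panel only.

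In mean level, SHP2 miR1 was lowest, SHP2 miR2 intermediate and CTRL miR highest for SPRY4, SPRED1, SPRED2 and SPRY2, and SPRED3 and SPRY1 had the opposite order. For SPRY4 each neighbour in this order differed past the threshold. For SPRED1 and SPRED2 neither neighbouring pair did, and only the ends of the order differed, SHP2 miR1 from control. For SPRY2, SPRED3 and SPRY1 no pair passed. Across the 6 arrays, SPRY4 correlated with PTPN11 at r = 0.976, SPRED1 at 0.955, SPRED2 at 0.835, SPRY2 at 0.637, SPRY3 at 0.010, SPRY1 at -0.780 and SPRED3 at -0.894. Among members the highest r was 0.937, between SPRY4 and SPRED1, and the lowest was -0.954, between SPRED1 and SPRED3. The arrays fall into 3 groups of 2, so these correlations describe mostly the group means and carry no test.

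The genes with the pattern most like SPRY4 over the 6 arrays were NAV1 (r = 0.998), FARP1 (r = 0.998), KLF7 (r = 0.997) and STK17A (r = 0.997), out of 2554 genes with a mean above the 40th percentile and an SD over arrays of at least 0.3. NAV1 and FARP1 are regulators of the cytoskeleton, KLF7 is a Krüppel-like transcription factor and STK17A is a serine/threonine kinase. Their average log2 differences were -1.10, -1.08, -1.30 and -1.15, smaller than that of SPRY4. SPRED1 was matched most closely by HIP1R (r = 0.999), POFUT4 (r = 0.989), the membrane protein gene EMP1 (r = 0.989) and the transcriptional repressor gene SNAI2 (r = 0.986). SPRED2 was matched by KMT2A (r = 0.993), RNF152 (r = 0.990), NAB1 (r = 0.990) and HPF1 (r = 0.987). KMT2A encodes a histone methyltransferase, and NAB1 is a co-repressor of EGR factors, and its average difference was -0.69. The 3 sets of 4 genes shared no member. All were picked for the highest r among 2554 genes over the same 6 arrays. Their close likeness therefore follows from the selection and carries no test.

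**Figure D3:**
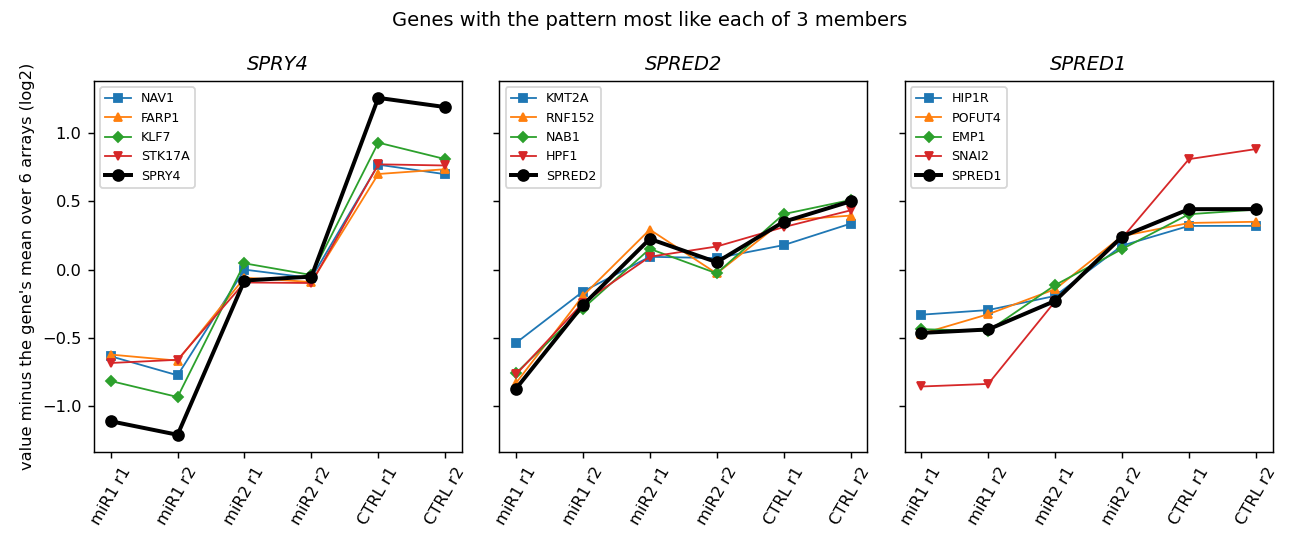
Log2 values minus each gene's mean over the 6 arrays, for SPRY4, SPRED2 and SPRED1 (black) and the 4 genes most like each by Pearson r; r1 and r2 are replicates 1 and 2. SPRY4 and its 4 matches form 3 flat steps. SPRED2 and its matches differ between the SHP2 miR1 replicates, and SPRED1 and its matches differ between the SHP2 miR2 replicates. The matches were picked by r over these same arrays, so the shared shapes follow from the selection.

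The other genes of the pathway were read from 7 lists, for the average of both SHP2 miRs. Of all genes, 2.67% were called lower and 1.53% higher in that average. These shares were 5.94% and 2.66% for SHP2 miR1, and 0.18% and 0.19% for SHP2 miR2. Each list count below stands beside them. Among 13 other feedback inhibitors of receptor and ERK signalling, 4 fell, 1 rose and 8 did not pass, with a median of -0.22, where the median of all genes was 0.02. DUSP4, DUSP6 and DUSP5, phosphatases of MAP kinases, fell by 1.21 (SE 0.14), 1.06 (SE 0.17) and 0.84 (SE 0.13), at adjusted p-values of 0.00263, 0.0101 and 0.0111. PHLDA1, a target and inhibitor of receptor signalling, fell by 0.64 (adjusted p = 0.0256). Its difference was -1.14 with SHP2 miR1 (adjusted p = 0.00261) and -0.14 with SHP2 miR2 (adjusted p = 0.769). Of the 13, PHLDA1 was the 1 that passed for SHP2 miR2 minus SHP2 miR1 (95% interval 0.67 to 1.33, adjusted p = 0.0421). LRIG3, of a family of receptor regulators, rose by 0.92 (SE 0.15, adjusted p = 0.0105). For SHP2 miR1 4 fell and 1 rose, and for SHP2 miR2 0 passed in limma. At an unadjusted p under 0.05 for SHP2 miR2 there were 4 of 13, LRIG3 as higher and DUSP4, DUSP5 and DUSP6 as lower, where 11.0% of all genes reached that p. ERRFI1, the EGF receptor inhibitor MIG6, had 0.01 (adjusted p = 0.985). Without control replicate 1 the list had 2 passing genes and without control replicate 2 it had 1, where DUSP4 and DUSP6 stood at adjusted p-values of 0.0558 and 0.126. Among the list genes named as changed in the average, leaving aside PHLDA1, which was not followed through these settings, PTPN11 and ERBB3 were the 2 that passed with each single array dropped.

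Of 14 genes that report ERK output through transcription, 5 fell, 0 rose and 9 did not pass, with a median of -0.49. The early response genes IER3 and EGR1 fell by 0.88 (SE 0.14, adjusted p = 0.00924) and 0.92 (SE 0.15, adjusted p = 0.0122). The ETS factor gene ETV4 fell by 0.95 (SE 0.19, adjusted p = 0.0286) and the AP-1 subunit gene FOSL1 by 0.64 (SE 0.13, adjusted p = 0.0304). For SHP2 miR1 7 of 14 fell, and for SHP2 miR2 0 passed, with 5 of 14 at an unadjusted p under 0.05 (11.0% of all genes). Dropping either control left 0, dropping SHP2 miR1 replicate 2 left 2, and dropping replicate 1 or 2 of SHP2 miR2 left 3 and 2.

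Of the 17 listed Sprouty partners and regulators, 14 were analysed, and 3 fell and 0 rose, with a median of -0.29. Besides PTPN11 itself these were the ubiquitin ligase genes NEDD4, at -0.96 (SE 0.18, adjusted p = 0.0230), and CBL, at -0.68 (SE 0.14, adjusted p = 0.0353). GRB2 had -0.10 and TESK1 -0.11, at adjusted p-values of 0.696 and 0.700. SHP2 miR1 by itself gave 5 that fell, and SHP2 miR2 gave 0, with 3 of 14, PTPN11 among them, at an unadjusted p under 0.05 (11.0% of all genes). Without control replicate 2 or SHP2 miR2 replicate 1 the count was 1. CBL did not pass once any array was dropped (adjusted p of up to 0.311), and NEDD4 without control replicate 2 (0.266) and without SHP2 miR2 replicate 1.

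Among RAS GTPase-activating proteins, the class of neurofibromin, which SPRED1 recruits, 1 of 5 analysed fell, with a median of -0.34. This was RASAL2, at -0.83 (SE 0.13, adjusted p = 0.0108), which missed the threshold without either control (adjusted p of up to 0.136). NF1 had -0.34 (adjusted p = 0.201) and lay below both controls on 4 of 4 SHP2 miR arrays, as did 13.6% of all genes. In the SHP2 miR1 comparison 2 fell, and in that of SHP2 miR2 0 passed, with 2 of 5 at an unadjusted p under 0.05 (11.0% of all genes).

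The RAS and ERK cascade had 2 of 12 analysed genes that fell and 0 that rose, and its median was -0.13. The kinase genes MAP2K1 and RPS6KA2 fell by 0.76 (SE 0.14, adjusted p = 0.0180) and 0.66 (SE 0.13, adjusted p = 0.0250). In the SHP2 miR1 comparison 4 fell, and SHP2 miR2 gave 0, with 4 of 12 at an unadjusted p under 0.05 (11.0% of all genes). None of the 12 passed once a control or SHP2 miR1 replicate 2 was dropped, and 1 did once either SHP2 miR2 array was.

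Among 16 receptor tyrosine kinases, which lie upstream of SHP2, 2 fell and 1 rose, with a median of -0.17. ERBB3 fell by 1.35 (SE 0.13, adjusted p = 0.000959) and AXL by 0.67 (SE 0.12, adjusted p = 0.0196), and FGFR3 rose by 0.84 (SE 0.13, adjusted p = 0.0106). An introduced ERBB2 or ERBB3 transcript cannot be told apart from the cells' own. In the SHP2 miR1 comparison 4 fell and 2 rose, and in that of SHP2 miR2 1 fell (ERBB3, by 1.16). ERBB2, the other receptor the line is named for, was among those 4, at -0.64 (adjusted p = 0.0310). With SHP2 miR2, ERBB2 differed from control by -0.12 (adjusted p = 0.819). Without either control 1 of the 16 passed.

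Of 8 other genes with an EVH1 domain, the domain that SPRED proteins carry, 0 passed in limma, with a median of -0.26, and 4 had an unadjusted p under 0.05, as did 20.9% of all genes. HOMER1 and HOMER2, postsynaptic scaffold genes, had -0.69 (adjusted p = 0.0505) and -0.44 (adjusted p = 0.117). HOMER1 and HOMER2 fell with SHP2 miR1, and 0 of 8 passed with SHP2 miR2, where 1 had an unadjusted p under 0.05 (11.0% of all genes).

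**Figure D4:**
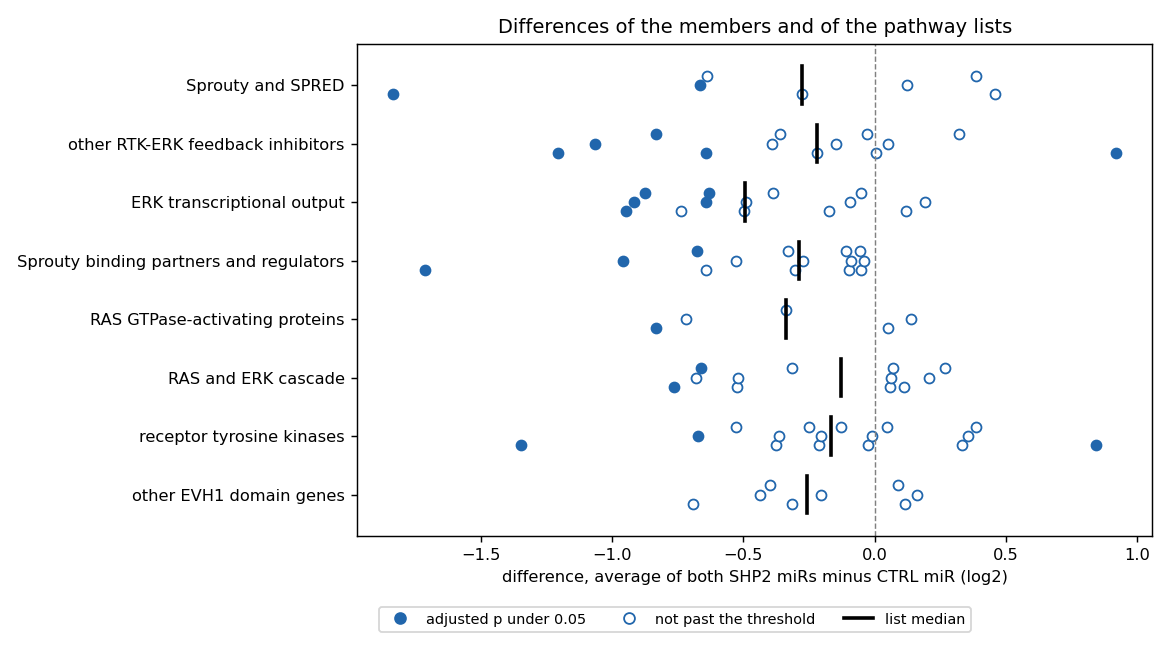
Log2 difference of each gene, average of both SHP2 miRs minus CTRL miR, for the Sprouty and SPRED genes and 7 pathway lists; filled points passed an adjusted p of 0.05 over all genes and black bars are list medians. SPRY4, at -1.84, lies further left than any gene shown, and every list median lies below 0, between -0.49 and -0.13.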

How the data were processed

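RNA from 6 samples of the established line MCF10A-HER2/3 was measured on HuGene-1_0-st-v1 arrays, with groups and replicate numbers taken from the sample titles. The deposited values are the authors' processed log2 probe set values, made with R 2.10 and oligo 1.8 per the submitters' processing notes. Base 2 was inferred from their range. How the arrays were background-corrected, normalized and summarised, and on which build, is not given in the sources used here. Precision is limited by the number of arrays.

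The platform annotation gives 1 gene symbol to 19310 of 28869 probe sets, several to 1752 and none to 7807, and 19279 matched the RefSeq table by gene identifier. Keeping the probe set with the highest mean left 18377 genes. All 6 arrays entered 1 limma 3.58.1 fit by group (lmFit, eBayes; 3 residual and 6.10 prior degrees of freedom) in R 4.3.3. It was tested on simulated data in which both SHP2 miRs changed 200 genes by a known size. At a log2 change of 0.5, 7% of them passed for the average, 0.5% for SHP2 miR1 and 0% for SHP2 miR2. At a change of 1 these were 99%, 96.5% and 93%. A difference near 0.5 or smaller that did not pass is therefore no evidence of an unchanged gene. The simulation drew independent normal noise with the fitted spread and gave both SHP2 miRs the same changes. In the data, 68 genes passed for SHP2 miR2, and PTPN11 at -1.11 did not. The 93% may therefore overstate what could be found for SHP2 miR2. P-values are two-sided, adjusted by Benjamini-Hochberg over all genes, with a threshold of 0.05, and every adjusted p-value of a gene comes from this fit or its alternatives. Intervals are 95% intervals of the fit.

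The members and lists were chosen with earlier results of these data known. All members are named, with up to 4 passing genes per list by smallest p (2 where none passed) and, for the 3 members of largest SD over arrays, the 4 genes of highest Pearson r with a mean above the 40th percentile and an SD of at least 0.3. ERRFI1, GRB2, TESK1, PHLDA1, NF1 and ERBB2 were named after their values were seen. Alternatives were a variance trend, a robust prior, leaving out dim genes, quantile normalization, median centring, averaged or all probe sets, array weights, fits on the groups compared, a replicate block and leaving out each array. In the last, the variance of a lone array is taken from the other groups.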

Additional observations from a re-analysis of the deposited data

Results flagged for a closer look

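The fall of SPRY4 differed between the SHP2 miRs. It stood out because the direct test of SHP2 miR2 minus SHP2 miR1 passed the threshold: the log2 difference was 1.09 (limma adjusted p = 0.0310), with 2 of 2 SHP2 miR2 arrays above both SHP2 miR1 arrays. PTPN11 was also higher with SHP2 miR2, by 1.21 (adjusted p = 0.0645), and it passed in 3 alternative settings (limma adjusted p down to 0.00248). The part of PTPN11 in the SPRY4 difference was not tested. Groups of 2 arrays are too small to look for single arrays far from the rest.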

How the results depend on the processing

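With 2 arrays per group, calls near the threshold depended on single arrays. For the average of both SHP2 miRs, 2 members passed, and the count was 1 with a robust prior, quantile normalization, all probe sets, array weights or the replicate block, and 1 to 2 with an array left out. SPRY4 passed in every alternative for the average, between -1.87 and -1.80. For SHP2 miR1 the count was 3, and 1 to 3 with an array left out. For SHP2 miR2 it was 1, and 0 to 1 with an array left out. For SHP2 miR2 minus SHP2 miR1 it was 1, and 0 with all probe sets, with the replicate block, with only the groups compared and with any array left out (range 0 to 0). The cause was not tested, though fewer arrays were fitted in these last settings, and the genes called over the whole array fell too, for the average to 108 to 512, against 771. Replicate differences correlated between groups at 0.067, 0.140 and 0.013, so the numbers were not taken as pairs, and the replicate block moved SPRED1 for the average to an adjusted p of 0.0507 and SPRY4 between the SHP2 miRs to 0.0611.

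Signs turned only for members that had not passed. SPRY3 reached between -0.044 and 0.29 for the average, -0.086 and 0.25 for SHP2 miR1, -0.044 and 0.38 for SHP2 miR2, and -0.13 and 0.30 between the SHP2 miRs with an array left out, and -0.049 for SHP2 miR1 under quantile normalization. SPRY2 reached between -0.54 and 0.032 for SHP2 miR2, and -0.24 and 0.33 between the SHP2 miRs. SPRED3 reached between -0.031 and 0.48 for SHP2 miR2. SPRY1 reached between -0.24 and 0.13 between the SHP2 miRs with an array left out, and 0.032 with array medians centred. SPRED2 passed for the average with a variance trend (adjusted p = 0.0368), as did PTPN11 for SHP2 miR2 (0.00400). SPRED1 missed for the average at adjusted p-values of 0.0507 to 0.0878 over the settings above. Genes called over the whole array numbered 540 to 1793 for the average under the other settings (771 as reported). They numbered 1098 to 2786 for SHP2 miR1 (1581), 37 to 367 for SHP2 miR2 (68) and 12 to 446 between the SHP2 miRs (35). With an array left out they numbered 269 to 1308, 0 to 60 and 0 to 15 for the last 3 of these. With a variance trend, passing genes for the average were 6 of the Sprouty partners (3 as reported), 4 of the cascade (2), 5 receptors (3), 2 RAS GTPase-activating proteins (1) and 2 EVH1 genes (0), and the ERK output list had 2 with all probe sets (5). Leaving out dim genes gave no value for SPRY3, and the fit on the groups compared does not apply to the average.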
